A study of Mus musculus with 10 samples.

Results

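The amino acid transporter genes described here are the members of the solute carrier families Slc1, Slc3, Slc6, Slc7, Slc36, Slc38 and Slc43, without Slc6a4, the serotonin transporter gene. They were chosen by symbol alone: a family name followed by the letter a and a number. The rule named 60 of the 24538 genes in the deposited count files, and symbols with a further letter, such as Slc6a20a, fell outside it.

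Libraries were made from macrophages sorted from lungs of wild-type mice aged 8-10 weeks, with 5 libraries per group. Metastasis-associated macrophages (MAMs) came from lung metastases, dissected 11 days after E0771-LG cells, a mouse mammary tumor line, had been injected by tail vein into syngenic C57BL6/J females 6-8 weeks old. Resident alveolar macrophages (RAMs) came from normal lungs of untreated animals. Both sorts took CD45+, F4/80+, LY6C-, MRC1+ cells of high forward scatter, and then CD11C- CD11B+ cells for MAMs and CD11C+ CD11B- cells for RAMs. Each metastasis sample was pooled from 2-4 mice according to the sample records, and the digestion buffer held the transcription inhibitors alpha-amanitin and actinomycin D. Tissue, tumor and the CD11B and CD11C gate all changed together between the groups, so their parts in a difference cannot be told apart.

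Most amino acids cross membranes only through carriers, and a cell's set of carriers decides which amino acids it can take up, give out or release from its lysosomes. Several carriers are exchangers made of a heavy chain, which brings the complex to the membrane, and a light chain, which forms the path for the amino acid. Macrophages are known for taking up arginine, from which they can make nitric oxide, and cystine, from which they make glutathione.

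The comparison asks how expression of these genes differs between macrophages of metastases and those resident in normal lung. Each library held between 50746305 and 87523247 counts on genes. The sorting markers were present: Ptprc, the gene of CD45, averaged 966 ± 29.8 CPM (counts scaled to the effective size of the library) in MAMs and 1063 ± 39.4 in RAMs (SD, n = 5), and Adgre1, the gene of F4/80, 300.2 ± 43 and 232 ± 16.0. These markers, which both gates require, were present in each group. Itgam, the gene of CD11B, averaged 6270.2 ± 417 CPM in MAMs and 64.3 ± 5.04 in RAMs, while Itgax, the gene of CD11C, averaged 171 ± 39.4 and 991 ± 91.8. Mrc1 averaged 1412 ± 140.01 CPM in MAMs and 2625 ± 68.1 in RAMs. Ly6c2, whose product was gated out, averaged 10.5 ± 4.96 CPM in MAMs and 0.143 ± 0.0980 in RAMs. Itgam and Itgax thus lay on the sides that the gates call for.

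Genes were tested where the deposited FPKM, a fragment count scaled by transcript length and by mapped fragments, averaged at least 1 in either group. They also needed a count in at least 1 library. That left 23 of the 60 amino acid transporter genes and 11571 genes in all. Of the other 37, 18 had no count in any library and 19 had some. Of the 23, 20 met the filter in both groups, Slc6a8 and Slc7a15 met it through MAMs alone, and Slc1a2 met it through RAMs alone. A member that enters through 1 group had to differ, so the counts over the 23 describe them and are no measure of the 60.

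A gene passed when edgeR's quasi-likelihood test gave an adjusted p under 0.05 (Benjamini-Hochberg adjustment over all genes tested), and it was called differentially expressed when its fold change was also over 2. Of the 23 amino acid transporter genes tested, 10 passed with higher values in MAMs, where 28.9% of all genes tested did so, and 10 passed with lower values, where 27.3% of all genes did. Counted in either direction, 20 passed, where 56.2% of all genes tested did. The members' share of 43.5% in each direction was above that of all genes, a difference that was not tested. Those differentially expressed were 5 higher in MAMs, against 15.3% of all genes tested, and 5 lower, against 15.1%. In 17 of the 23 the libraries of the groups did not overlap, which held for 44.9% of all genes tested. For each of those 17 an exact two-sided permutation test of the mean CPM gave p = 0.00794, the smallest value that the 126 ways to split 10 libraries evenly allow. Groups that do not overlap always give this value, so it adds nothing to the lack of overlap. Changes in both directions were equally frequent, and their median log2 fold change was -0.04, where that of all genes tested was -0.02. The median size of the change without its sign was 0.79 on the log2 scale, against 0.56 over all genes tested. These p-values measure the spread between samples, and in bulk RNA fewer cells that express a gene and less RNA per cell cannot be told apart. The split over all genes depends on scaling: 51.4% of the genes that passed were higher in MAMs with TMM normalization and 40.3% with upper-quartile normalization, which moved the median of all genes to -0.18 and left 9 members higher and 10 lower.

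**Figure D1:**
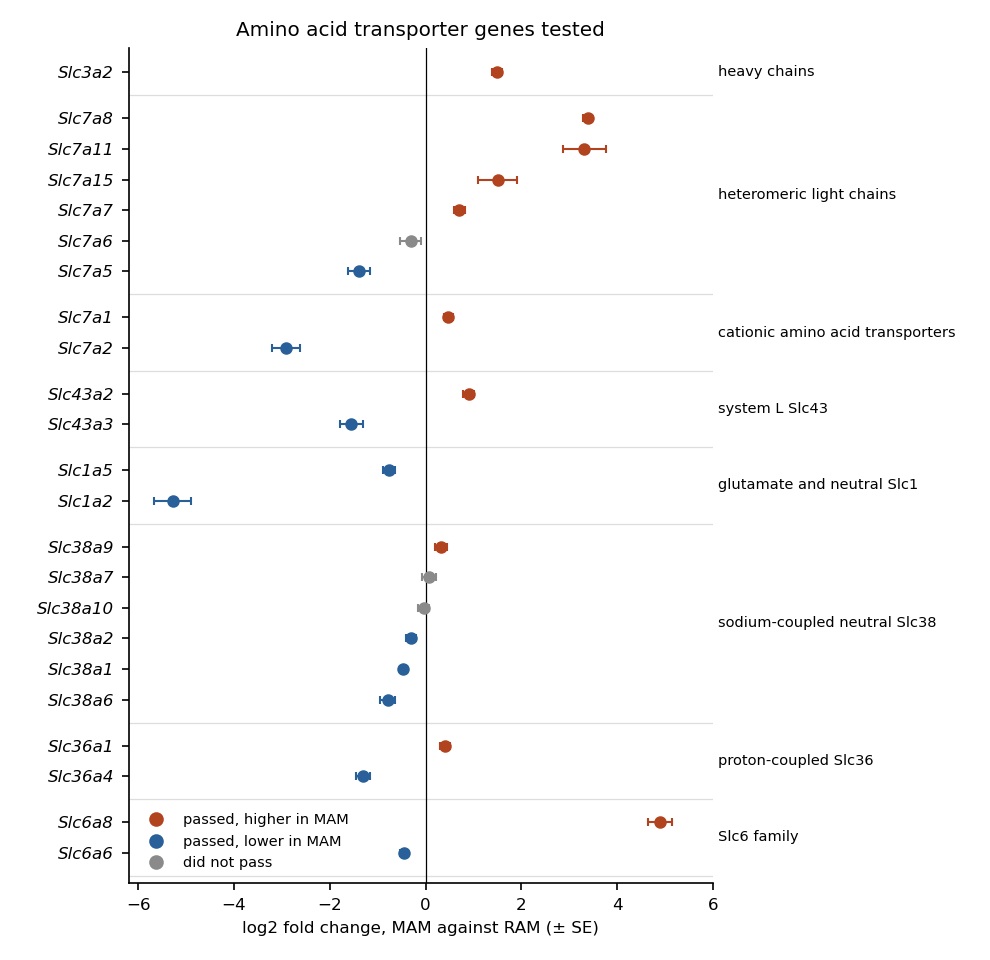
Log2 fold change of MAMs against RAMs for the 23 amino acid transporter genes tested, grouped by role, with bars for ± SE. Red points passed with higher values in MAMs (10 genes, 9 with upper-quartile normalization), blue points passed with lower values (10) and grey points did not pass (3), and they run from -5.28 for Slc1a2 to 4.90 for Slc6a8.

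The heavy chain Slc3a2 encodes the protein known as CD98, the partner of most light chains. Its CPM was 466, 472, 565, 620.2 and 600.3 in MAM libraries 1 to 5 and 194, 181, 160.1, 223 and 209 in RAM libraries 1 to 5. Every MAM library lay above every RAM library, at more than double the highest RAM value. The means were 545 ± 72.0 and 193 ± 24.4 CPM (SD, n = 5), a log2 fold change of 1.49 ± 0.107 (SE; edgeR, adjusted p = 1.22e-08). The other heavy chain, Slc3a1, which serves kidney and gut, stayed below the filter with 2 to 53 counts per MAM library and 26 to 149 per RAM library.

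Slc7a8 is a light chain that exchanges large and small neutral amino acids. Its CPM was 811, 831, 821, 753 and 779 in the MAM libraries and 60.7, 85.4, 79.2, 87.1 and 69.9 in the RAM libraries. The groups stood far apart, and the MAM libraries lay close to each other. Means of 799 ± 32.3 and 76.4 ± 11.1 CPM (SD, n = 5) gave a log2 fold change of 3.39 ± 0.101 (SE; edgeR, adjusted p = 5.98e-13), so that RAMs held 9.57% of the MAM level.

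Slc7a11 is the light chain that takes up cystine in exchange for glutamate. It measured 438, 426, 322, 280.5 and 362 CPM in the MAM libraries and 17.2, 23.9, 14.8, 100.3 and 27.6 CPM in the RAM libraries. All MAM libraries lay above all RAM libraries, and RAM replicate 4 stood well above the other RAM libraries. Means of 366 ± 67.1 and 36.7 ± 35.9 CPM (SD, n = 5) gave a log2 fold change of 3.32 ± 0.449 (SE; edgeR, adjusted p = 1.39e-05), and without RAM replicate 4 it was 4.13 (edgeR, adjusted p = 6.97e-10).

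The promoter of Slc7a11 is shown because its 110 bases up to just past the gene's start hold the letters TGATGNAA, a form of the amino acid response element, on both strands. The same letters are in the windows of Slc7a7, another light chain tested, shown at the outer of its 2 RefSeq starts, and of Slc1a4, a neutral amino acid carrier. They are also in the window of Slc6a21, which had no count in any library and is not shown. Of the 42 members with a window 9.52% held these letters, and of all genes with a window 4.51%. Whether the letters are related to expression was not tested. The sequences are from RefSeq (GRCm38.p6), at chr3:50443604-50443713, chr14:54417935-54418044 and chr11:20332704-20332813, all on the minus strand and written 5′ to 3′ along the gene, with capitals for the letters on either strand.
Slc7a11: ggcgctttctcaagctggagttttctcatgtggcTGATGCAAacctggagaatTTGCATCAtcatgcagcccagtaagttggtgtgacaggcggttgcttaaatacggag
Slc7a7: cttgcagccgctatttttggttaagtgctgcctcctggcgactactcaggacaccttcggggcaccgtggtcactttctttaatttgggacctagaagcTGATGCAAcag
Slc1a4: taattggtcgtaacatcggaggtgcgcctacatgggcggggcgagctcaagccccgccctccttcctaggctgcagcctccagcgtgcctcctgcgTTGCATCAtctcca

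The other light chains differed in direction. Slc7a7, which exports cationic amino acids in exchange for neutral ones with sodium, averaged 106 ± 12.2 CPM in MAMs and 64.7 ± 10.5 in RAMs (SD, n = 5) (log2 fold change 0.71, edgeR adjusted p = 1.47e-04) with no overlap of libraries. Slc7a15, a rodent light chain, averaged 5.67 ± 2.45 and 1.99 ± 0.672 CPM (log2 fold change 1.5, edgeR adjusted p = 0.00549), with MAM replicate 5 below the highest RAM library (exact two-sided permutation p = 0.0159). The fold change of Slc7a15 was 0.85 in limma's test on log2(FPKM + 1), where a pseudocount of 1 is near the gene's level. Slc7a5, the large neutral amino acid exchanger that carries leucine, moved the other way, and is shown by library after its values were seen. It measured 20.8, 22.7, 45.9, 33.1 and 53.8 CPM in the MAM libraries and 94.6, 86.2, 87.6, 93.0 and 101 CPM in the RAM libraries. The RAM libraries were alike, all above the MAM libraries, which ranged more widely among themselves. The log2 fold change of Slc7a5 was -1.39 ± 0.220 (SE; edgeR, adjusted p = 6.68e-05). Slc7a6, a relative of Slc7a7 with the same exchange, averaged 8.23 ± 1.09 CPM in MAMs and 10.2 ± 1.86 in RAMs and did not pass (log2 fold change -0.31, edgeR adjusted p = 0.247). Of the 10 light chains, 6 were tested, 4 passed with higher values in MAMs and 1 with lower. Of all genes tested, 28.9% passed with higher values and 27.3% with lower. Slc7a9, Slc7a10 and Slc7a12 had no count in any library, and Slc7a13 was below the filter.

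**Figure D2:**
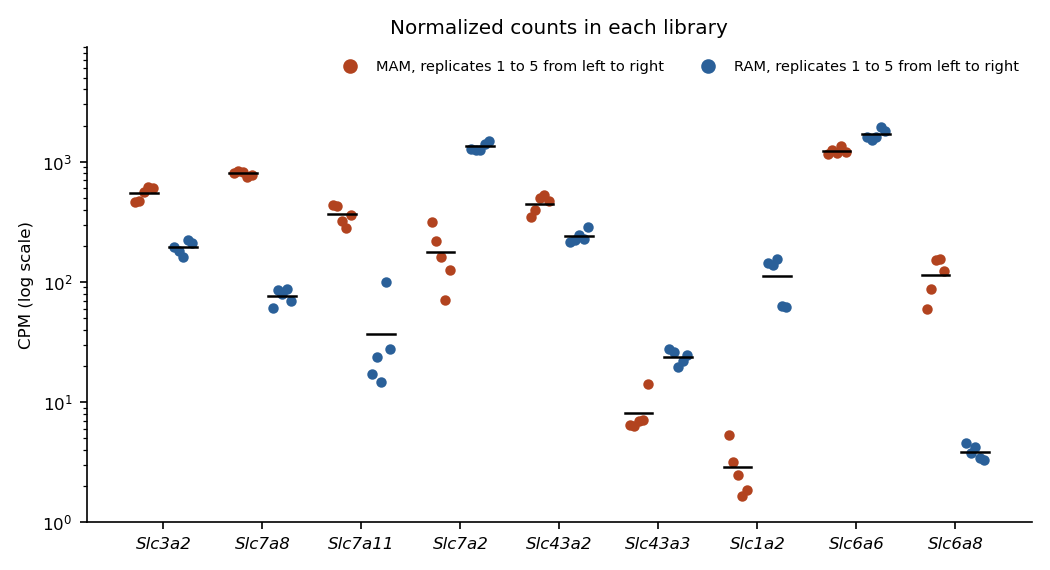
CPM in each library, on a log scale, for 9 amino acid transporter genes, with 1 point per library (replicates 1 to 5 from left to right) and a bar at the group mean. MAM points (red) lie above RAM points (blue) for Slc3a2, Slc7a8, Slc7a11, Slc43a2 and Slc6a8 and below them for Slc7a2, Slc43a3, Slc1a2 and Slc6a6.

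The light chains that can join Slc3a2 (Slc7a5, Slc7a6, Slc7a7, Slc7a8, Slc7a10 and Slc7a11) were added up on the FPKM scale, which allows levels of different genes to be compared. Their sum was 306 ± 9.48 FPKM in MAMs and 88.6 ± 4.32 in RAMs (SD, n = 5), while Slc3a2 itself stood at 219 ± 28.6 and 69.3 ± 8.26 FPKM. The ratio of the light chain sum to Slc3a2 was 1.42 ± 0.199 in MAMs and 1.29 ± 0.111 in RAMs, with overlapping libraries. The make-up of the sum differed between the groups. Slc7a8 made up 67.5% ± 1.86 of the light chain FPKM in MAMs and 23.0% ± 3.44 in RAMs. Slc7a5 made up 3.71% ± 1.5 in MAMs and 34.7% ± 1.27 in RAMs. Slc7a7 was the largest share in RAMs on average, at 36.1% ± 5.23, and made up 17.7% ± 2.48 in MAMs. In MAMs a single light chain thus held most of the FPKM, whereas in RAMs Slc7a7, Slc7a5 and Slc7a8 shared it. Slc7a11 made up 10.4% ± 1.90 in MAMs and 3.50% ± 3.39 in RAMs, where RAM replicate 4 had 9.54%. Slc7a6 held 0.649% in MAMs and 2.70% in RAMs, and Slc7a10 held 0. These are shares of RNA, and the protein complexes were not measured.

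**Figure D3:**
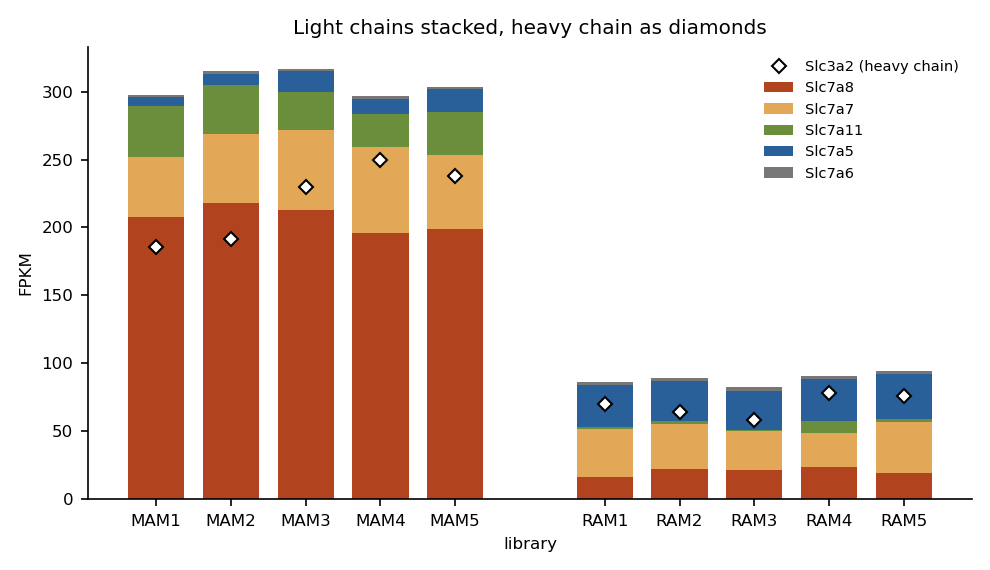
FPKM of the Slc3a2-partner light chains stacked for each of the 10 libraries, with white diamonds for Slc3a2. The sum was 306 FPKM on average in MAMs and 88.6 in RAMs, and Slc7a8 (red) made up 67.5% of it in MAMs and 23.0% in RAMs.

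The cationic amino acid transporters carry arginine, lysine and ornithine without a heavy chain. Slc7a2 measured 313, 218, 161, 71.1 and 126 CPM in the MAM libraries and 1266, 1263, 1256, 1414 and 1499 CPM in the RAM libraries. RAM libraries were uniformly high, and the MAM libraries, all far lower, differed several-fold among themselves, with replicate 1 highest and replicate 4 lowest. Means of 178 ± 92.6 and 1339 ± 111 CPM (SD, n = 5) gave a log2 fold change of -2.91 ± 0.289 (SE; edgeR, adjusted p = 5.02e-07), so that MAMs held 13.3% of the RAM level. Slc7a1, which serves the same substrates in most tissues, averaged 81.5 ± 6.00 CPM in MAMs and 58.7 ± 5.56 in RAMs (log2 fold change 0.47, edgeR adjusted p = 6.16e-04) with no overlap of libraries. The pair of cationic carriers thus moved in opposite directions. Slc7a3, Slc7a4 and Slc7a14 were below the filter, with no more than 254 counts in any library.

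Slc43a2 is a carrier of branched-chain and other large neutral amino acids that lets them move either way. It measured 350.2, 393, 502, 528 and 469 CPM in the MAM libraries and 216, 223, 245, 227 and 286 CPM in the RAM libraries. The lowest MAM library lay above the highest RAM library. Means of 449 ± 74.9 and 239 ± 28.0 CPM (SD, n = 5) gave a log2 fold change of 0.91 ± 0.115 (SE; edgeR, adjusted p = 6.87e-06). Slc43a3, placed in the family by its sequence and described as a carrier of purine nucleobases, measured 6.4, 6.30, 6.91, 7.11 and 14.2 CPM in the MAM libraries and 27.7, 25.9, 19.7, 21.9 and 24.8 CPM in the RAM libraries. MAM replicate 5 stood apart from the other MAM libraries and still lay below every RAM library. The log2 fold change of Slc43a3 was -1.55 ± 0.241 (SE; edgeR, adjusted p = 5.73e-05), from means of 8.19 ± 3.39 and 24.0 ± 3.21 CPM (SD, n = 5). Slc43a1, the remaining member of the family, had 2 counts over all libraries.

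Slc1a2 takes up glutamate with sodium and is best known from astrocytes. It measured 5.37, 3.19, 2.48, 1.65 and 1.87 CPM in the MAM libraries and 144, 139.5, 155, 62.7 and 62.1 CPM in the RAM libraries. The groups were far apart, and within RAMs replicates 1 to 3 were more than double replicates 4 and 5. Means of 2.91 ± 1.5 and 113 ± 46.3 CPM (SD, n = 5) gave a log2 fold change of -5.28 ± 0.383 (SE; edgeR, adjusted p = 1.33e-08), with MAMs at 2.58% of the RAM level. The deposited FPKM table lists replicates 1 to 3 apart from 4 and 5, and with a term for that division the log2 fold change of Slc1a2 was -5.25. In limma's test on log2(FPKM + 1) it was -3.02, where the MAM level of 0.261 FPKM is below the pseudocount. Slc1a5, which exchanges glutamine and other neutral amino acids, averaged 26.7 ± 2.18 CPM in MAMs and 45.2 ± 6.39 in RAMs (log2 fold change -0.76, edgeR adjusted p = 1.1e-04), again without overlap. Both Slc1 genes tested, of 7 in the family, were thus lower in MAMs, where 27.3% of all genes tested passed with lower values.

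The Slc38 family carries neutral amino acids, glutamine above all, with sodium at the cell surface or out of lysosomes. Slc38a1, a glutamine carrier at the cell surface, averaged 187 ± 6.94 CPM in MAMs and 258 ± 20.9 in RAMs (SD, n = 5) (log2 fold change -0.47, edgeR adjusted p = 5.61e-05), and the libraries did not overlap. Slc38a6 averaged 27.8 ± 6.23 and 48.2 ± 1.35 CPM (log2 fold change -0.79, edgeR adjusted p = 4.16e-04), also without overlap. These were the 2 members of the family whose groups stood apart. Slc38a2, which is known to be induced when amino acids run short, averaged 229.5 ± 19.97 CPM in MAMs and 283 ± 45.0 in RAMs, with overlapping libraries (log2 fold change -0.30, edgeR adjusted p = 0.0262). That call was near the threshold: without MAM replicate 1, RAM replicate 2, RAM replicate 3 or RAM replicate 4 the log2 fold change of Slc38a2 was -0.25, -0.27, -0.25 and -0.29, with adjusted p between 0.0527 and 0.0745. Slc38a9, the lysosomal carrier that reports arginine to mTORC1, averaged 76.3 ± 14.1 CPM in MAMs and 60.6 ± 5.83 in RAMs (log2 fold change 0.33, edgeR adjusted p = 0.0336). Slc38a9 no longer passed with upper-quartile normalization (0.17, adjusted p = 0.26), in limma's tests on FPKM, or without any of MAM replicates 1 and 5 and RAM replicates 1, 2 and 4 (adjusted p from 0.0524 to 0.101). Slc38a7, which releases glutamine and asparagine from lysosomes, averaged 38.3 ± 8.34 and 36.4 ± 2.10 CPM and did not pass (log2 fold change 0.07, and -0.09 with upper-quartile normalization). Slc38a10 averaged 72.9 ± 7.69 and 74.9 ± 11.1 CPM and did not pass either (log2 fold change -0.04, and 0.02 without MAM replicate 1 or RAM replicate 1). Of the 6 Slc38 genes tested, of 11 in the family, 3 passed with lower values in MAMs and 1 with higher, each with a fold change under 2. Among all genes tested, 27.3% passed with lower values and 28.9% with higher.

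The Slc36 genes belong to a family named for carriers coupled to protons. Slc36a1, which moves small neutral amino acids out of lysosomes, averaged 178 ± 10.8 CPM in MAMs and 134 ± 20.3 in RAMs (SD, n = 5) (log2 fold change 0.41, edgeR adjusted p = 0.0028). Slc36a4, a carrier with high affinity for proline and tryptophan, averaged 26.6 ± 5.13 and 65.8 ± 7.60 CPM (log2 fold change -1.31, edgeR adjusted p = 1.44e-06). The libraries of the groups did not overlap for either gene, and the directions were opposite. Slc36a2 and Slc36a3 were below the filter.

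The Slc6 family includes carriers of neurotransmitters as well as of taurine and creatine. Slc6a8, the creatine carrier, measured 59.9, 86.7, 152, 155 and 122 CPM in the MAM libraries and 4.55, 3.75, 4.20, 3.46 and 3.30 CPM in the RAM libraries. Every MAM library was more than 10 times above every RAM library, and MAM replicates 1 and 2 were the lowest of their group. Means of 115 ± 41.3 and 3.86 ± 0.519 CPM (SD, n = 5) gave a log2 fold change of 4.90 ± 0.254 (SE; edgeR, adjusted p = 2.79e-10), and 3.94 in limma's test on log2(FPKM + 1), where the RAM level of 0.888 FPKM is below the pseudocount. Slc6a6, the taurine carrier, measured 1167, 1249, 1180.1, 1363 and 1212 CPM in the MAM libraries and 1613, 1509.7, 1601, 1958 and 1793 CPM in the RAM libraries. All MAM libraries were lower than all RAM libraries by a modest margin. Means of 1234 ± 78.7 and 1695 ± 179 CPM (SD, n = 5) gave a log2 fold change of -0.46 ± 0.0774 (SE; edgeR, adjusted p = 1.25e-04). The other 16 of the 18 Slc6 genes were below the filter.

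On the FPKM scale, which corrects for length, the order of levels differed between the groups. In MAMs the highest were Slc3a2 at 219 ± 28.6, Slc7a8 at 207 ± 9.31 and Slc6a6 at 205 ± 14.8 FPKM (SD, n = 5), with overlapping ranges, so that these 3 cannot be ordered. All 5 MAM libraries of each lay above those of the next genes, Slc43a2 at 62.5 ± 10.2 and Slc7a7 at 54.2 ± 7.34 FPKM. In RAMs the order began with Slc6a6 at 286 ± 29.5 FPKM and Slc7a2 at 150.4 ± 11.6 FPKM, each apart from the next gene, and Slc3a2 followed at 69.3 ± 8.26 FPKM. Slc7a8 stood among the highest in MAMs and only at 20.4 ± 2.98 FPKM in RAMs, and Slc7a2 the reverse, at 20.1 ± 10.3 FPKM in MAMs. The lowest of the genes tested was Slc1a2 in MAMs, at 0.261 ± 0.152 FPKM, while in RAMs Slc6a8 at 0.888 ± 0.105 FPKM and Slc7a15 at 0.901 ± 0.454 FPKM were the lowest, with overlapping ranges. The FPKM of all members summed to 1028 ± 53.1 in MAMs and 871 ± 55.4 in RAMs, with the lowest MAM library at 948 and the highest RAM library at 942.

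**Figure D4:**
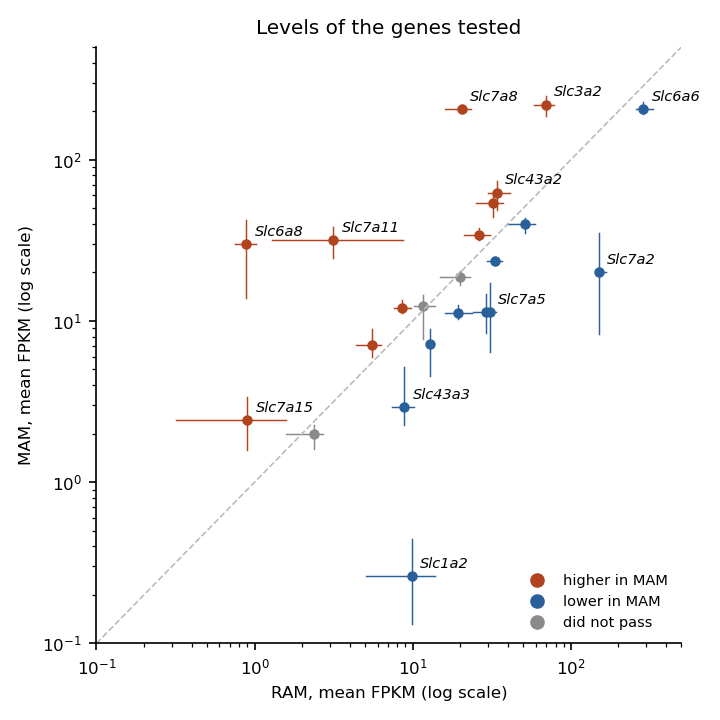
Mean FPKM in MAMs against mean FPKM in RAMs for the 23 amino acid transporter genes tested, both on log scales, with lines for the range of the 5 libraries and a dashed line of equal levels. Slc7a8 (207 in MAMs, 20.4 in RAMs) and Slc6a8 (30.0 and 0.888) lie far above the dashed line, and Slc7a2 (20.1 and 150.4) and Slc1a2 (0.261 and 9.83) far below it.

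Among the 37 members below the filter, some were counted in 1 group and almost not in the other, and those named here other than Slc1a3 were chosen after their values were seen. Slc1a3, a glutamate carrier of glia, had the highest FPKM of any member below the filter, 0.972 in RAMs. Its counts were 1, 0, 1, 0 and 0 in the MAM libraries and 214, 407, 184, 136 and 196 in the RAM libraries. RAMs thus held nearly all of its counts, and after correction for library size the ratio of RAMs to MAMs was 577 (95% exact interval 159 to 4770.1). Slc1a4, which exchanges serine, alanine and other neutral amino acids, ran the other way with 89, 18, 193, 111 and 243 counts in the MAM libraries and 1, 1, 1, 0 and 0 in the RAM libraries. Its ratio of MAMs to RAMs was 215 (95% exact interval 73.2 to 1044). Slc7a13, a light chain that pairs with Slc3a1 in the kidney, had 0, 0, 0, 1 and 0 counts in the MAM libraries and 88, 171, 166, 28 and 32 in the RAM libraries, a ratio of 492 (95% exact interval 87.9 to 19482). RAM replicates 1 to 3 held more Slc7a13 counts than replicates 4 and 5, as for Slc1a2. These intervals cover counting error only, and without molecular identifiers the reads cannot be taken as independent molecules. When genes were tested without a filter, 13 members of 42 passed in edgeR's test with higher values in MAMs and 14 with lower values, where 41.6% of all genes with a count passed in either direction. Of the 19 members below the filter with a count, 7 passed, where 19.7% of all genes below the filter with a count did. They were Slc1a3 (edgeR, adjusted p = 2.96e-07), Slc1a4 (1.84e-05) and Slc7a13 (3.54e-05), then Slc38a8 (0.0126) and Slc6a2 (0.0159), both lower in MAMs, and Slc6a19 (0.0274) and Slc6a12 (0.0445), both higher. The last 4 rest on part of the libraries. For Slc6a2, 234 of its 239 RAM counts came from RAM replicate 2, and the other RAM libraries held 0, 0, 1 and 4. Slc38a8 had 56, 98, 11, 0 and 0 counts in the RAM libraries, Slc6a19 had 0, 61, 19, 58 and 4 in the MAM libraries, and Slc6a12 had 24 and 18 in MAM replicates 3 and 4 and none elsewhere. Slc3a1 missed the threshold in that test (edgeR, adjusted p = 0.0507). The 11 others with a count were Slc1a1, Slc1a7, Slc36a2, Slc36a3, Slc38a4, Slc43a1, Slc6a9, Slc6a14, Slc7a3, Slc7a4 and Slc7a14. The 18 with no count in any library were Slc1a6, Slc38a3, Slc38a5, Slc38a11, Slc7a9, Slc7a10, Slc7a12 and 11 genes of the Slc6 family.

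Markers of macrophage origin and of other cells moved with the group too, and their part in the results on the transporter genes was not tested. The alveolar macrophage list (13 genes tested, 11 lower and 1 higher in MAMs) summed to 494 to 669 CPM in MAM libraries and 12679 to 15911 in RAM libraries, with Marco highest in MAMs and Chil3 in RAMs. MAMs held 4.03% of the RAM level of the summed list, a share carried by Marco, which did not pass (232 CPM in MAMs, 368 in RAMs), and Fabp5, which was higher in MAMs (117 and 41.9 CPM). Over the 11 genes that passed with lower values, the share ran from 0.985% (Cidec) to 34.7% (Fabp4) with a median of 1.15%, next to 2.58% for Slc1a2 and 13.3% for Slc7a2. In MAM replicates 1 to 5 the summed list stood at 669, 635, 624, 494 and 507 CPM and Chil3 at 108, 118, 110.3, 100.3 and 89.1 CPM. The sum and Chil3 varied less between MAM libraries than Slc7a2 and Slc1a2 did, but within the list Marco varied widely, at 232 ± 122 CPM (SD, n = 5). The summed list, Slc7a2 and Slc1a2 were each highest in MAM replicate 1 and lowest in replicate 4. None of the 11 genes that passed with lower values had this order. Chil3 was highest in MAM replicate 2 and lowest in replicate 5, and Atp6v0d2 rose from 39.7 CPM in replicate 1 to 63.6 in replicate 4. Whether the list and these carriers are related was not tested. The monocyte-derived macrophage list (12 tested, 11 higher and 1 lower) summed to between 9585 and 10828 CPM in MAM libraries and between 1255 and 1521 in RAM libraries, with C1qb highest in MAMs and Mertk in RAMs. RAMs held 13.7% of the MAM level of the summed list, where Mertk, its 1 gene lower in MAMs, stood at 267 CPM in MAMs and 795 in RAMs. Over the 11 genes that passed with higher values, the share ran from 0.892% (C1qa) to 24.7% (Csf1r) with a median of 3.12%, next to 9.57% for Slc7a8 and 3.35% for Slc6a8. Marco, Fabp5, Cidec, Fabp4, Atp6v0d2, Mertk, C1qa and Csf1r are named after their values were seen.

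Lists for cells outside the gates differed widely in level. Epithelial tumor cell markers (4 of 12 tested, 3 lower in MAMs) summed to between 10.6 and 24.5 CPM in MAM libraries and between 590 and 703 in RAM libraries, with Krt19 highest and Krt5 and Cldn3 at 0 in all libraries. Lung epithelium markers (7 of 12 tested, 2 higher, 3 lower) summed to between 110.4 and 197 CPM in MAM libraries and between 64.7 and 81.2 in RAM libraries, with Pdpn highest in MAMs and Napsa in RAMs. Lymphocyte markers (5 of 12 tested, 1 higher) summed to between 14.3 and 30.8 CPM in MAM libraries and between 5.24 and 21 in RAM libraries, with Cd4 highest in MAMs and Cd79a in RAMs. The sums of the tumor cell and lung epithelium lists followed a few genes, named after their values were seen. Krt19 stood at 6.09 CPM in MAMs and 436 in RAMs, while Krt8, which was not tested, stood at 1.48 and 0.0453 and Krt18, which did not pass, at 1.81 and 0.119. Pdpn stood at 117 CPM in MAMs and 4.47 in RAMs, while Sftpc, Sftpb and Scgb1a1 passed with lower values in MAMs. In the lung epithelium list, markers thus passed in both directions. Neutrophil markers (5 of 10 tested, 3 higher, 1 lower) summed to between 124 and 312 CPM in MAM libraries and between 139 and 203 in RAM libraries, with Csf3r highest and Elane at 0. Dendritic cell markers (3 of 9 tested, 2 higher, 1 lower) summed to between 14.2 and 24.9 CPM in MAM libraries and between 20.6 and 31.2 in RAM libraries, with Batf3 highest in MAMs and Clec9a in RAMs. Stroma and endothelium markers (6 of 12 tested, 5 higher, 1 lower) summed to between 62.7 and 119.95 CPM in MAM libraries and between 127 and 221 in RAM libraries. Kdr was highest in MAMs and Vwf in RAMs, and Vwf was, unlike the other genes of the list that passed, lower in MAMs. Platelet and erythrocyte markers (3 of 10 tested, 2 higher) stood out, with sums between 351 and 1049 CPM in MAM libraries and between 10.8 and 21.5 in RAM libraries. Pf4 was highest, and with Ppbp it made up most of the sum in MAMs. Pf4 averaged 565 CPM in MAMs and 6.24 in RAMs, and Ppbp 148 and 2.29. The other markers with counts were not higher in MAMs. Gp9, which did not pass, stood at 0.809 CPM in MAMs and 0.880 in RAMs. Itga2b stood at 1.68 and 3.34 and Alas2 at 3.05 and 3.70, both not tested. Ppbp, Gp9, Itga2b and Alas2 are named after their values were seen. Hbb-bs, Hbb-bt, Hba-a1 and Hba-a2 had a count of 0 in all libraries. The deposited FPKM of Hbb-bs was nonetheless 2.94 in MAMs and 0.00303 in RAMs and that of Hba-a1 0.662 and 0.119, so counts of 0 do not show that erythrocyte RNA was absent. The platelet and erythrocyte sums were 351, 527, 788, 875 and 1049 CPM in MAM replicates 1 to 5. Slc6a8, Slc3a2, Slc43a2, Slc7a5, Slc7a7 and Slc38a2 were likewise lowest in MAM replicates 1 and 2. The monocyte-derived macrophage list split: Ms4a7, Apoe and Fcgr1 were lowest in these replicates, while Ccr2, Csf1r, C1qa, C1qb and Cd14 were highest there. Slc7a1, Slc7a2, Slc7a11, Slc1a2 and Slc36a4 were highest in MAM replicates 1 and 2 as well. These markers are named after their values were seen, and whether they are related to the carriers was not tested.

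Genes that sense or use the transported amino acids were described from 9 lists, with 144 different genes tested, 5 of them in more than 1 list. Every gene named from these lists except Ass1 passed edgeR's test. Their counts can be read beside the 28.9% of all genes tested that passed with higher values and the 27.3% with lower values, and no list was tested as a whole. As for the members, a gene that met the FPKM filter through 1 group alone had to differ. Among the genes named below, Nos2, Padi4, Bcat1, Ddit4, Trib3, Rragd and Kmo met it through MAMs alone and Prodh through RAMs alone. The counts of the lists thus describe the genes tested. The arginine and polyamine list, which holds enzymes that make or use arginine, ornithine or polyamines and some of their regulators, had 12 of 18 genes higher in MAMs and 1, Oaz1, lower, with a median log2 fold change of 1.12. With Ass1 and Oaz1, which had no count in 1 of the groups, set at the bound of 3 counts over that group, the median was 1.04. Both are named after their values were seen: Oaz1 had FPKM of 36.5 in MAMs and 35.1 in RAMs but between 0 and 18 counts per library, so its counts do not give its level and its call as lower cannot be relied on. Ass1 had FPKM of 4.62 in MAMs and 0.0805 in RAMs but no more than 1 count in any library. The counts of Ass1 do not give its level either. Nos2, the nitric oxide synthase, stood at 3.50 and 0.0778 FPKM (log2 fold change 5.95), and Padi4, which changes arginine in proteins to citrulline, at 39.3 and 0.427 FPKM (6.78). Apart from Oaz1, the genes of this list that passed were thus higher in MAMs, while Slc7a2, the cationic carrier with the higher FPKM in RAMs, was lower.

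The cystine and glutathione list, which holds enzymes of glutathione synthesis and use together with the regulators Nfe2l2 and Keap1, Hmox1, and Txnrd1 and Srxn1 of the thioredoxin system, had 9 of 12 genes higher in MAMs and 2 lower, with a median log2 fold change of 1.10. Hmox1, a heme oxygenase that does not use cystine, stood at 2142 FPKM in MAMs and 126 in RAMs (log2 fold change 4.14), Srxn1 at 74.9 and 11.2 (2.75), and Gclm, a subunit of the first enzyme of glutathione synthesis, at 47.2 and 14.7 (1.68). Slc7a11 was higher in MAMs as well. Glutamine and glutamate enzymes had 2 of 13 higher and 5 lower, with a median of -0.29. Got1 and Asns, the asparagine synthetase, were higher (log2 fold changes 3.20 and 2.57), Prodh was lower (-1.84), and Glud1, the most abundant, was at 129 FPKM in MAMs and 189 in RAMs (-0.52).

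The amino acid response genes, which cells turn on when amino acids run short, had 10 of 20 higher in MAMs and 5 lower, with a median of 0.59. Atf4, the transcription factor of that response, was the most abundant, at 185 FPKM in MAMs and 124 in RAMs (log2 fold change 0.59), Ddit4 and Trib3 were higher (3.82 and 2.87), and Phgdh, the first enzyme of serine synthesis, was lower (-3.26). Genes of lysosomal amino acid sensing and mTORC1, the pathway of Slc38a9, had 13 of 30 higher and 4 lower, with a median of 0.26. Rragd and Gatsl2 were higher (2.93 and 2.52), Deptor was lower (-2.28), and Lamtor2, the most abundant, was at 146 FPKM in MAMs and 240.0 in RAMs (-0.66). Other amino acid carriers outside the families above had 5 of 12 higher and 2 lower, with a median of 0.30. Slc15a3, a lysosomal carrier of histidine and peptides, was the most abundant of these at 366 FPKM in MAMs and 278 in RAMs (0.39), Slc25a22, a mitochondrial glutamate carrier, was higher (1.62), and Ctns, the lysosomal cystine exporter, and Slc16a10, an aromatic amino acid carrier, were lower (-1.04 and -0.89).

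The remaining lists had genes passing in both directions, in shares near those of all genes tested or, for tRNA synthetases, under them. Branched-chain enzymes, which break down leucine, isoleucine and valine, had 5 of 15 higher and 4 lower, with a median of -0.08. Bcat1, which starts that breakdown in the cytosol, was higher at 1.63 FPKM in MAMs and 0.0125 in RAMs (log2 fold change 7.27), Mccc2 and Bckdhb were lower (-3.60 and -2.87), and Dld was the most abundant (-0.25). Tryptophan and aromatic enzymes had 2 of 6 higher and 2 lower, with a median of 0.18. Kynu and Afmid of the kynurenine pathway were lower (-4.96 and -2.51), Kmo was higher (2.13), and Wars, also a tRNA synthetase, was the most abundant and higher (1.12). Cytosolic aminoacyl-tRNA synthetases, which load amino acids on tRNA, had 6 of 23 higher and 4 lower, with a median of 0.10. Yars and Gars were lower (-0.85 and -0.84), and Nars was the most abundant (0.38).

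**Figure D5:**
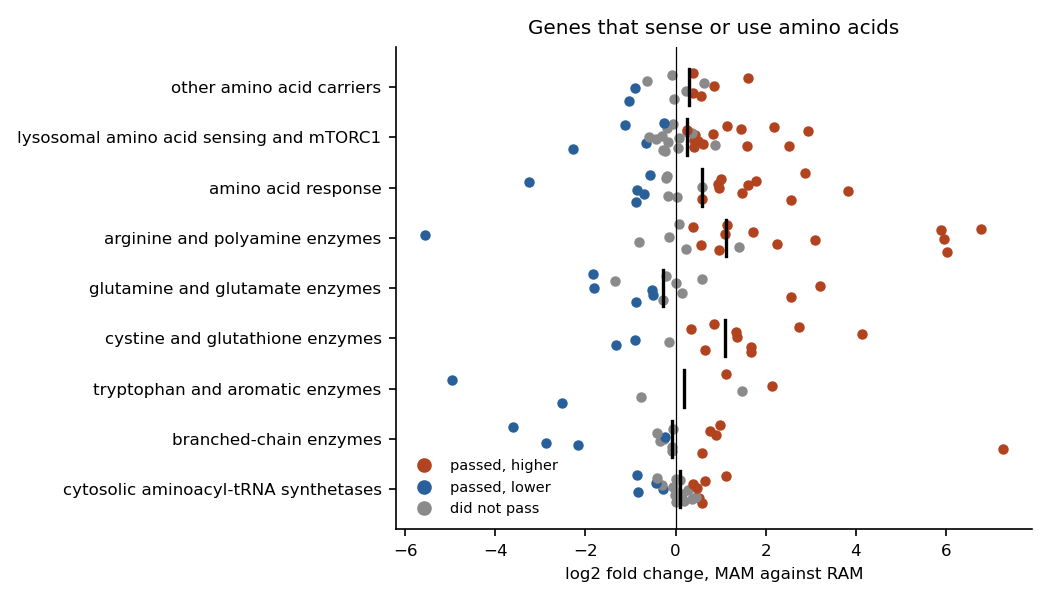
Log2 fold change of MAMs against RAMs for the genes tested in 9 lists of amino acid sensing and use, with 1 point per gene and a black bar at each list's median. Medians run from -0.29 for glutamine and glutamate enzymes to 1.12 for arginine and polyamine enzymes, and red, blue and grey points passed with higher values, passed with lower values or did not pass.

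All 60 members have a position in the mouse genome (GRCm38). Slc7a8 lies at chr14:54722209-54781946 and Slc3a2 at chr19:8706882-8723369, both on the minus strand, as is Slc7a11 at chr3:49892526-50443614. Slc7a2 lies at chr8:40862396-40922308, Slc1a2 at chr2:102658659-102790784 and Slc6a8 at chrX:73673150-73682502, all on the plus strand, as are Slc6a6 at chr6:91684053-91759066, Slc43a2 at chr11:75531694-75577575 and Slc43a3 at chr2:84936579-84958509. Of the 23 genes tested, 7 have an exon overlapped by a gene on the opposite strand: Slc1a2, Slc38a10, Slc38a9, Slc43a2, Slc6a6, Slc7a2 and Slc7a7. The strand setting of the counting is not given in the sources used here, so part of the counts of these 7 genes is uncertain in origin.

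Promoter windows of 250 bases before to 50 after a gene's start were at hand for 42 of the 60 members and 16 of the 23 tested. The tested members without a window were Slc1a5, Slc38a1, Slc43a3, Slc6a6, Slc6a8, Slc7a2 and Slc7a5. The letters TGATGNAA, searched on both strands, were in the windows of 4 of the 42 members, Slc7a11, Slc7a7, Slc1a4 and Slc6a21, or 9.52%, where 4.51% of all 27025 genes with a window held them. By window, they were in 7.94% of the 63 windows of members and in 3.97% of all 32851 windows. The windows of Slc7a7 share 1 match. In Slc7a11 the matches began 66 and 47 bases before the start, in Slc1a4 4 bases before it, and in Slc7a7 1 and 141 bases before the outer of its 2 RefSeq starts, which lies outside the span that GENCODE gives the gene. From the inner start of Slc7a7 the nearer of these matches was 243 bases away, and the 110 bases around that start held none. Slc7a11, Slc7a7 and Slc1a4 were each higher in MAMs, and Slc6a21 had no count. The letters TGACNNNGC, a form of the antioxidant response element, were in the windows of 9 of the 42 members, or 21.4%, and of 14.0% of all genes with a window. The tested ones were Slc36a1, Slc38a2, Slc7a1 and Slc7a6, so the letters were not in the window of Slc7a11. A match describes the letters, and binding of a factor was not measured.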

How the data were processed

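Deposited values were used as they stand. The authors aligned reads to GRCm38 with TopHat2 2.0.13, used HTSeq 0.6.1 to make whole-number counts of uniquely mapped reads and deposited FPKM from Cufflinks 2.2.1 (versions from the submitters' processing notes). The lines of each count file that name no gene, which held 54.6% to 58.3% of all counts in MAM libraries and 62.2% to 64.1% in RAM libraries, were left out. Libraries held 50746305 to 87523247 counts on genes. Replicates correlated at 0.950 to 0.978 in log2 CPM, and no libraries were identical.

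MAMs were tested against RAMs with edgeR 4.0.16 in R 4.3.3 (quasi-likelihood test, TMM factors of 0.897 to 0.943 in MAMs and 1.07 to 1.10 in RAMs, prior count 2, no covariate, Benjamini-Hochberg adjustment). The test covered the 11571 genes with a count whose FPKM averaged at least 1 in either group. CPM are counts over effective library size. Alternatives were DESeq2 1.42.0, RLE and upper-quartile factors, other filters, limma 3.58.1 on log2(FPKM + 1) and log2(FPKM + 0.1), a replicate block, each library left out and, chosen after seeing the data, a term for replicates 1 to 3 against 4 and 5. The fits were tested on simulated data. Figures were drawn with Python 3.11.15 and matplotlib 3.10.9. Positions are from GENCODE M21 and sequences from RefSeq.

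Members and lists were chosen with earlier results of these data known. Every member that met this filter is named, and the highest of the others. Values per library are given for the 3 highest and 3 lowest fold changes at a mean FPKM of 5 or more and for the 5 highest FPKM. Slc7a5, named by library after its values were seen, and Slc1a4, Slc7a13, Slc6a2, Slc38a8, Slc6a19, Slc6a12, Ass1 and Oaz1 are outside that rule. Genes named with values from pathway lists are among the 3 largest changes or the most abundant. Those named from marker lists are the most abundant, at 0, or named after their values were seen.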

Additional observations from a re-analysis of the deposited data

Results flagged for a closer look

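In 4 of 46 groups of 5 libraries, a group being the CPM of 1 transporter gene in MAMs or in RAMs, 1 library lay so far from the rest that its gap to the nearest filled more than 0.71 of the group's range. Chance flags about 1 in 20 groups. Slc7a11 was at 100.3 CPM in RAM replicate 4, where the other RAM libraries lay between 14.8 and 27.6. Slc43a3 was at 14.2 CPM in MAM replicate 5, where the other MAM libraries lay between 6.30 and 7.11. In MAM replicate 1, Slc38a2 was at 195 CPM, where the others lay between 231 and 245, and Slc38a7 was at 23.9 CPM, where the others lay between 39.0 and 45.0. No explanation was tested for these values.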

How the results depend on the processing

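Of 763 values under alternatives, 277 counts stayed within 1.5 times the reported count, and 445 log2 fold changes and 23 level ratios kept their direction and call. Differentially expressed members numbered 8 higher and 9 lower without a filter (42 members tested) and 8 lower with filterByExpr (31 tested), because more members were tested. The log2 fold change of Slc38a10 ran from -0.119 to 0.0198 as each library was left out (0.0168 without RAM replicate 1), and that of Slc38a7 was -0.0903 with upper-quartile normalization. In 12 values Slc38a2 or Slc38a9 lost the call, and the cause was not tested. Leaving out each library gave 9 to 10 members higher and 9 to 10 lower. Replicate numbers do not pair the groups (correlations of same-number libraries from -0.0366 to 0.0294), and with a replicate block 10 members were higher, 10 lower, and 6305 of all genes passed against 6504 without it. Genes with few counts, such as Slc1a3 in MAMs, are limited by depth.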
